A study of Bos taurus with 3 samples.

Results

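*TM4SF1* and the tetraspanins *CD9*, *CD63*, *CD81*, *CD82*, *CD151*, *TSPAN1* and *TSPAN8* encode small proteins that cross the cell membrane several times. These 8 genes, of 19533 genes with a named row in the count matrix, were chosen by the levels of *TM4SF1* in the cows and in cells set by *GJA1*, *CLDN4* and *DLK2*, which were known beforehand, with tetraspanins as its partners. The values of *TM4SF1* in those groups are therefore a description, with no test. Of the 8 genes, 7 had a row, and 6 passed the filter on low counts with which 10734 genes were tested. *TSPAN8* is not analysed here. *TSPAN1* had 4 UMIs in all, each of them in cow 1, so no difference of it was detectable at this depth. In the authors' gene list the measured genes are ENSBTAG00000015163 (*TM4SF1*), ENSBTAG00000014764 (*CD9*), ENSBTAG00000011931 (*CD63*), ENSBTAG00000047495 (*CD81*), ENSBTAG00000031252 (*CD82*) and ENSBTAG00000019569 (*CD151*).

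Tetraspanins hold other membrane proteins together in patches of the membrane. CD151 binds laminin-binding integrins, CD9 and CD81 bind immunoglobulin-type partners such as IGSF8 and PTGFRN, CD9 also binds the membrane form of the growth factor HBEGF, and CD63 sits mainly on late endosomes and on the vesicles that they release. CD82 is known for holding back the movement of cells. TM4SF1 belongs to a separate family with a like shape, is a surface protein best known from endothelial and tumour cells, and is found near tetraspanins and integrins at the leading edge of moving cells. In stratified epithelia such as the rumen wall, these proteins lie beside the adhesion and junction proteins that tie neighbouring keratinocytes to each other and to the basement membrane.

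The cells came from the ventral sac of the rumen of 3 adult, lactating Holstein dairy cows under 1 condition, with no treated or control group and 1 droplet library per cow. The tissue was freed of muscle and digested with enzymes, dead cells were removed, and the authors kept epithelial cells. A UMI (unique molecular identifier) tags each captured transcript, so that PCR copies are not counted again, and all levels below are UMIs per 10000 UMIs. The 3' ends of transcripts were counted, so a level needs no division by the length of the gene. The suffix of a barcode (1, 2 or 3) was read as the cow, and a difference between cows cannot be told apart from one between the 3 dissociations and libraries.

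The libraries held 3369 to 9958 cells and 38912809 to 104189434 UMIs, and 35 barcodes occurred in 2 libraries. Markers of other cell types were low in all 3 cows. The keratins *KRT5*, *KRT14*, *KRT19*, *KRT10* and *KRT6A* summed to between 60.7 and 128 per 10000. All 7 endothelial markers together reached between 0.0260 and 0.0409, with 4 UMIs of *PECAM1* and 3 of *CDH5* in the whole data set. The 7 immune markers summed to between 0.120 and 0.333, most of it *CD14* (5013 UMIs against 38 of *PTPRC*), the 4 fibroblast markers with a row to at most 0.0023, the 4 smooth muscle markers to at most 0.0170 and the 2 melanocyte markers with a row to at most 0.0058. The files hold no cell type that should lack these genes, so no share of cells was available as a background of free RNA.

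*TM4SF1* differed more between the cows than almost any gene of its level. In cows 1, 2 and 3 its level was 0.552 (2147 UMIs), 2.28 (21669 UMIs) and 0.244 (2539 UMIs). The 95% exact binomial intervals, which cover counting error only, ran from 0.529 to 0.576, from 2.25 to 2.32 and from 0.234 to 0.253. Cow 2 thus stood above both others, and the mean was 1.03 ± 1.10 (SD, n = 3 cows).

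The highest cow exceeded the lowest by 9.37 times. Over the 10734 genes tested the median of this ratio was 1.53 and its 95th percentile 4.06, and 97 genes (0.904%) had a larger ratio than *TM4SF1*. The 6 genes with 0 UMIs in a cow have no such ratio and are not counted as larger, here or below. Low counts widen such ratios, so *TM4SF1* was also set beside the 1109 genes within 2-fold of its overall level. Their median ratio was 1.42, and 3 of them had a larger one. Since *TM4SF1* was chosen for this spread, its rank is a description and not a finding of a test.

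**Figure D1:**
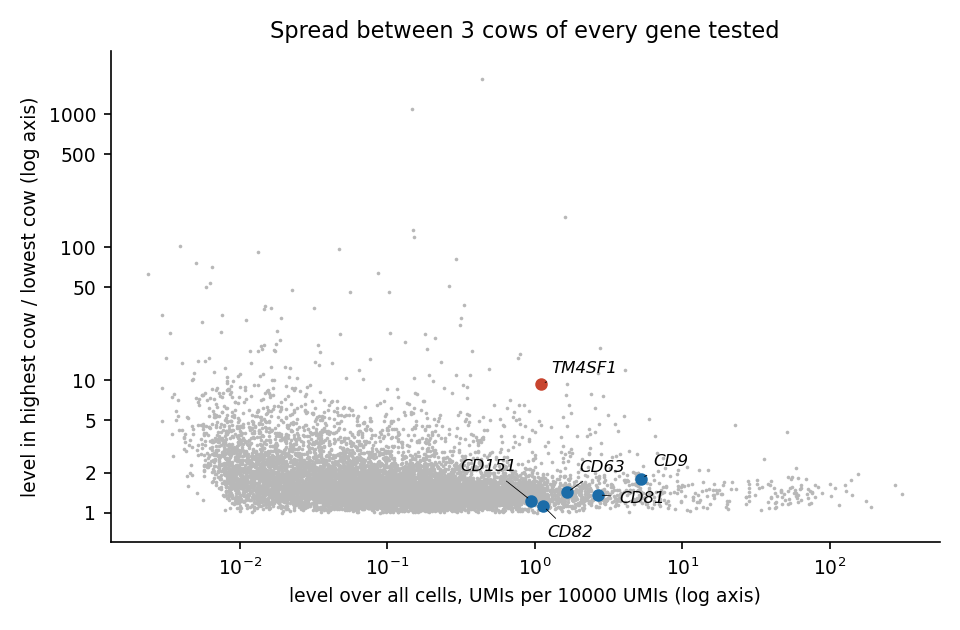
Level over all cells (horizontal, UMIs per 10000, log axis) and the ratio of the highest to the lowest cow (vertical, log axis) for each gene tested that had UMIs in all 3 cows (grey points), with *TM4SF1* in red and 5 tetraspanins in blue. *TM4SF1* lies at a ratio of 9.37, far above the bulk of the genes of its level, while the tetraspanins lie between 1.12 and 1.81.

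The tetraspanins did not share this spread. *CD9* had the widest ratio among them, 1.81, with 3.53, 4.71 and 6.41 per 10000 in cows 1, 2 and 3. *CD63* was at 1.28, 1.63 and 1.83. *CD82* was the most even of the family, at 1.07, 1.11 and 1.20, a ratio of 1.12. *CD81* had 2.96, 2.21 and 3.03 and *CD151* 1.00, 0.829 and 1.03. All 5 had their highest value in cow 3, though for *CD81* and *CD151* the counting intervals of cows 1 and 3 overlapped. The share of all genes that were highest in cow 3 is not given here, so nothing is read from this count. Of the 10734 genes, 3271 had a larger ratio than *CD9* and 10188 a larger one than *CD82*.

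The spread of *TM4SF1* was in the share of cells and in the number of UMIs per cell alike. At least 1 UMI was found in 25.9%, 59.2% and 15.7% of the cells of cows 1, 2 and 3. After each cell was thinned to 5000 UMIs, which left out 1518 shallower cells, the shares were 17.4%, 43.6% and 9.02%. At least 5 UMIs were left in 0.395%, 4.78% and 0.0648% of the thinned cells. The UMIs were concentrated in few cells in every cow. The top 10% of cells held 69.9%, 51.6% and 77.6% of the *TM4SF1* UMIs, and the most in any cell was 17, 54 and 18 UMIs.

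Other values moved with the cows. The 10 immediate-early and stress genes, which cells switch on within minutes of a disturbance, summed to 66.7, 91.7 and 25.2 per 10000 in cows 1, 2 and 3, the same order of the cows as for *TM4SF1*. The median mitochondrial share of a cell was highest in cow 1, and the 4 proliferation genes were lowest in cow 2 (0.382, against 1.38 in cow 1 and 2.25 in cow 3). The part of the digestion of the tissue or of these measures in the spread of *TM4SF1* was not tested.

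To follow the family through the epithelium, each cell was put into 1 of 5 sets by the UMIs of 3 genes that are no members. *GJA1* encodes connexin 43, a gap junction channel, *CLDN4* a claudin of tight junctions, and *DLK2* a protein that the study used as a mark of granule cells. The *GJA1* set had a UMI of *GJA1* and none of *DLK2* (565, 481 and 615 cells in cows 1, 2 and 3). The *CLDN4*-only set had *CLDN4* and neither of the others (460, 1769 and 1724 cells), and the *DLK2*-only set had *DLK2* alone (767, 1699 and 2001 cells). The mixed set had *DLK2* with *GJA1* or *CLDN4*, and the triple-negative set had no UMI of any. A cell without a UMI may still express the gene, and deeper cells reach a set more easily. The median depth of a cell was 13811 to 18172 UMIs in the *GJA1* set, 11090 to 13810 in the *CLDN4*-only set and 8676 to 9971 in the *DLK2*-only set.

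In each of the 5 sets *TM4SF1* was highest in cow 2 and lowest in cow 3. In the *GJA1* set it was at 0.696, 3.43 and 0.472 per 10000 in cows 1, 2 and 3. In the *CLDN4*-only set it was at 0.765, 3.11 and 0.357. The *DLK2*-only set had the lowest level in cows 2 and 3, with 0.378, 1.18 and 0.130. The mixed set had 0.611, 2.26 and 0.163, and the triple-negative set 0.362, 1.62 and 0.210, the lowest of cow 1. Taken over the cows, the levels of every set overlapped those of every other set. Weighting the 5 sets alike in every cow left a ratio of 8.70 between the highest and the lowest cow, beside 9.37 over all cells. This does not hold the levels of the set genes alike. *CLDN4* was at 1.19, 2.80 and 0.534 in cows 1, 2 and 3, a ratio of 5.25. Inside the *CLDN4*-only set it was at 2.64, 4.34 and 1.55. *DLK2* had the same order of cows (0.677, 0.839 and 0.366), while *GJA1* was highest in cow 1 (1.33, 0.401 and 0.267). Their part in the spread of *TM4SF1* was not tested. Over the 15 sums of 5 sets and 3 cows, the cow took 84.8% of the variance of *TM4SF1* on the log2 scale and the set 13.6%, where the medians over all genes tested were 52.9% and 26.0%.

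**Figure D2:**
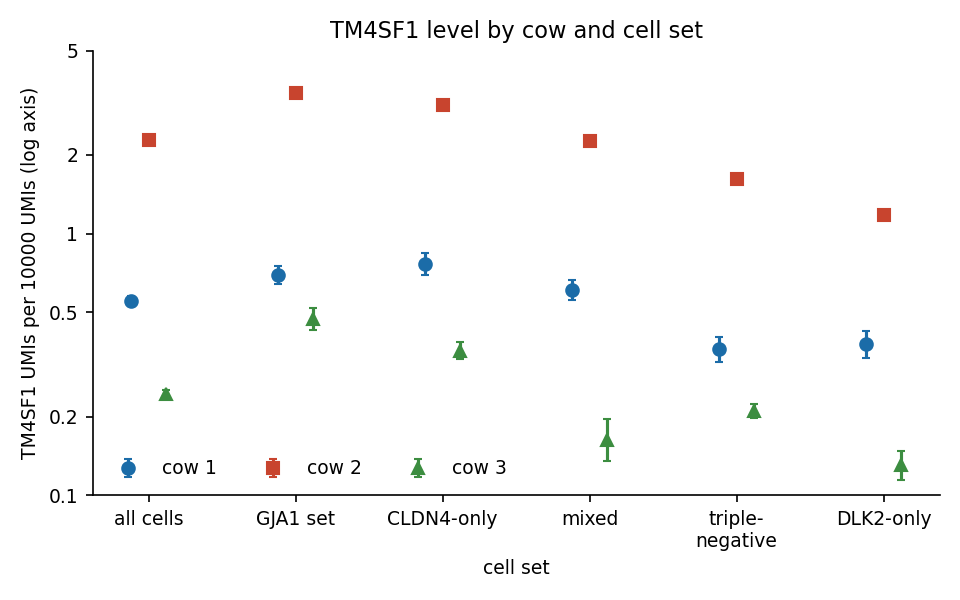
*TM4SF1* level (vertical, UMIs per 10000, log axis) in all cells and in each of the 5 cell sets (horizontal) for cow 1 (circles), cow 2 (squares) and cow 3 (triangles), with 95% exact binomial intervals of the counts. Cow 2 is the highest and cow 3 the lowest in every set, and within each cow the *GJA1* and *CLDN4*-only sets lie above the *DLK2*-only set.

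Within a cow the order of the sets was partly fixed. The level in the *GJA1* set was 1.84, 2.92 and 3.61 times that in the *DLK2*-only set, and that in the *CLDN4*-only set 2.02, 2.64 and 2.74 times. Both sets therefore stood above the *DLK2*-only set in 3 of 3 cows. The *CLDN4*-only and *GJA1* sets had no common order, with ratios of 1.10, 0.905 and 0.757, and in cow 1 their counting intervals overlapped. Those of the *DLK2*-only and triple-negative sets overlapped in cow 1, and those of the *DLK2*-only and mixed sets in cow 3. On the fitted scale, which removes the cow and scales the libraries by TMM (trimmed mean of M values), *TM4SF1* was higher than in the *DLK2*-only set by a log2 fold change of 1.56 ± 0.14 (SE) in the *GJA1* set and 1.34 ± 0.14 in the *CLDN4*-only set. Each SE was derived from the fold change and the F statistic of the fit, and for *TM4SF1* it is not read as a test.

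*CLDN4* went with *TM4SF1* inside the *GJA1* set as well. In cells of this set that also had a *CLDN4* UMI (318, 390 and 353 cells), *TM4SF1* was at 0.865, 3.78 and 0.573 per 10000 in cows 1, 2 and 3. In those without one (247, 91 and 262 cells) it was at 0.422, 1.39 and 0.292. The ratios were 2.05, 2.73 and 1.96, so the cells with *CLDN4* were the higher in 3 of 3 cows. The cells with *CLDN4* were also deeper, with a median of 14909 to 18767 UMIs against 12416 to 14761. The part of depth in this was not tested within the set. Over all thinned cells, and not the *GJA1* set alone, with 0, 1, 2 and 3 or more *CLDN4* UMIs left, *TM4SF1* stood in cow 1 at 0.442, 0.665, 0.863 and 1.02. The same bins gave 1.44, 1.84, 2.37 and 3.94 for cow 2, and 0.197, 0.270, 0.476 and 1.24 for cow 3. Each step was upward in each cow, and in the last bin cow 3 was above cow 1.

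Of *GJA1*, cells with 3 or more UMIs had *TM4SF1* at 0.919, 2.55 and 0.712 in cows 1, 2 and 3, against 0.498, 1.97 and 0.218 in cells with none. In cow 2 the level did not go on upward after 1 *GJA1* UMI (3.00). *DLK2* went the other way. Cells with 1 *DLK2* UMI had 0.423, 1.57 and 0.134, against 0.590, 2.28 and 0.248 in cells with none. Later steps were not all downward. With 2 *DLK2* UMIs the level was 0.459, 1.28 and 0.174, and with 3 or more it was 0.209 in cow 1 and 1.51 in cow 2. The last *DLK2* bin of cow 3 held 65 cells and 1 *TM4SF1* UMI, so its level is not read.

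**Figure D3:**
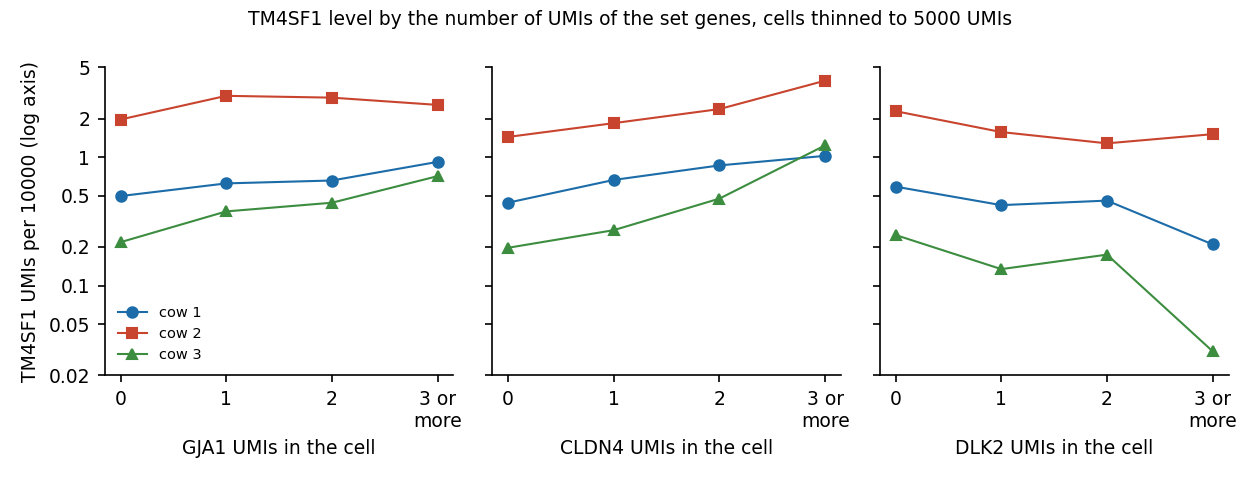
*TM4SF1* level (vertical, UMIs per 10000, log axis) in cells with 0, 1, 2 and 3 or more UMIs (horizontal) of *GJA1*, *CLDN4* and *DLK2*, in cells thinned to 5000 UMIs of cow 1 (circles), cow 2 (squares) and cow 3 (triangles). With *CLDN4* the level climbs at each step in all 3 cows, from 0.197 to 1.24 in cow 3, and the last *DLK2* point of cow 3 rests on 1 UMI.

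The tetraspanins were compared between the sets on the sums of counts, with the edgeR quasi-likelihood test, the cow as a block and Benjamini-Hochberg adjustment over all 10734 genes. A gene was called at an adjusted p under 0.05 and an absolute log2 fold change over 0.25. The sets come from the same 3 cows, both of the first comparisons share the *DLK2*-only set, and the *GJA1* and *CLDN4*-only sets recur in the comparison of those with each other. Many genes differ between such sets, and 51.6% of all genes tested were called between the *GJA1* and *DLK2*-only sets, 25.9% higher and 25.7% lower. A call of a single tetraspanin is to be read against this share.

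Of the 5 tetraspanins tested, *CD9*, *CD82* and *CD151* were higher and *CD63* was lower in the *GJA1* set than in the *DLK2*-only set. *CD151*, the partner of laminin-binding integrins, was at 1.40, 1.32 and 1.63 per 10000 in the *GJA1* set of cows 1, 2 and 3. Its level in the *DLK2*-only set was 0.826, 0.686 and 0.858. The groups did not overlap, and the log2 fold change was 1.00 ± 0.06 (SE; edgeR quasi-likelihood test, adjusted p = 5.3e-11). *CD82* had 1.38, 1.69 and 1.85 in the *GJA1* set and 0.882, 0.915 and 1.06 in the *DLK2*-only set, again without overlap. It was higher by 0.91 ± 0.07 (edgeR quasi-likelihood test, adjusted p = 8.3e-10). Both genes stand in the study's own marker lists of cells with *GJA1*, made from the same cells, so their direction was known beforehand. How many of all genes lack overlap between such sets is not given here. A lack of overlap, here or below, is therefore a description and is not read as particular to these genes.

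*CD9* had 4.26, 6.45 and 9.26 per 10000 in the *GJA1* set and 3.27, 4.17 and 5.47 in the *DLK2*-only set. The groups overlapped, because the cows differed more than the sets, yet the *GJA1* set was the higher in 3 of 3 cows. The log2 fold change was 0.72 ± 0.06 (edgeR quasi-likelihood test, adjusted p = 1.1e-08). *CD63*, the endosomal tetraspanin, was at 0.879, 1.36 and 1.45 in the *GJA1* set and at 1.59, 1.79 and 1.97 in the *DLK2*-only set. It was lower in each cow and its groups did not overlap, with a log2 fold change of -0.43 ± 0.07 (edgeR quasi-likelihood test, adjusted p = 5.7e-05). Without the cow as a block *CD9* and *CD63* were no longer called (adjusted p = 0.22 and 0.35), while *CD82* and *CD151* were. *CD81* was not called. Its levels of 2.95, 2.36 and 3.27 stood beside 3.00, 2.12 and 2.92, the *GJA1* set was the higher in 2 of 3 cows, and the log2 fold change of 0.22 ± 0.06 was under the fold threshold (edgeR quasi-likelihood test, adjusted p = 0.0041), which it passed with 2 or more UMIs for presence (0.26) and without cow 1 (0.25).

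**Figure D4:**
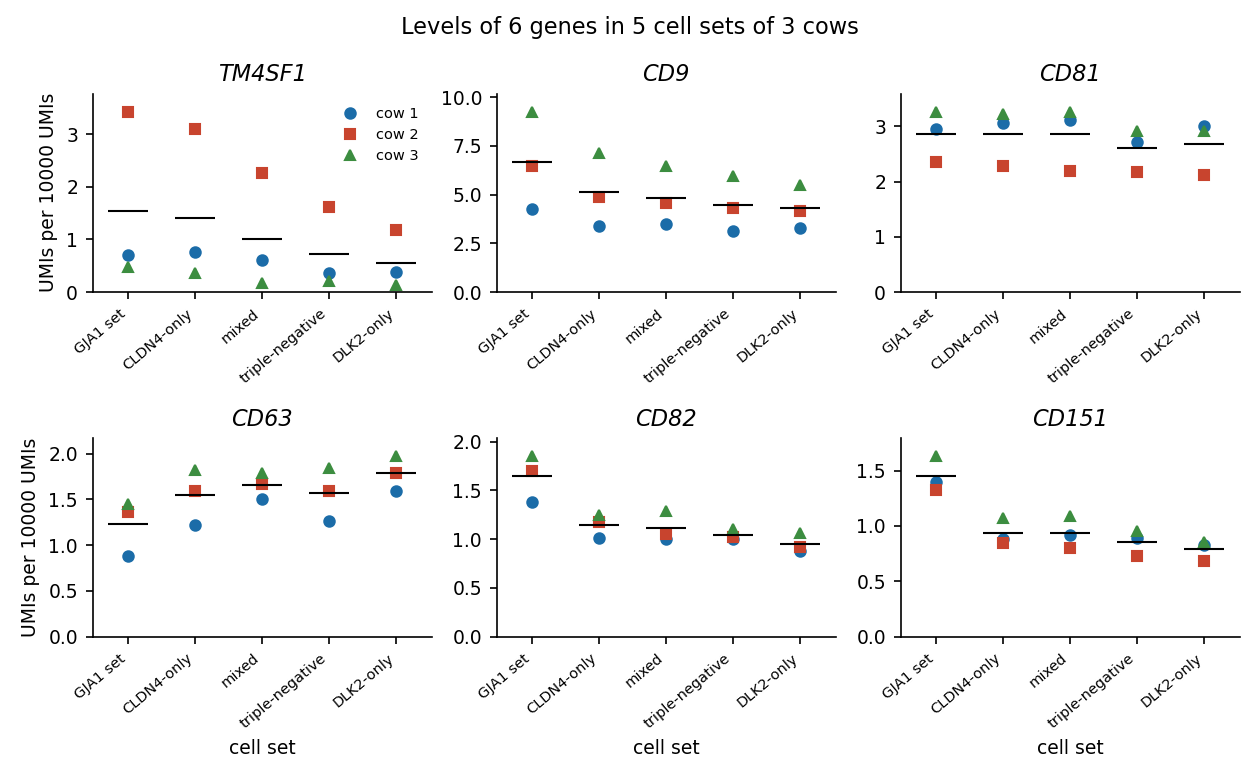
Levels (vertical, UMIs per 10000, axis from 0) of *TM4SF1* and 5 tetraspanins in the 5 cell sets (horizontal) of cow 1 (circles), cow 2 (squares) and cow 3 (triangles), with the mean of the cows as a bar. *CD82* and *CD151* are highest in the *GJA1* set, where *CD63* is lowest, and only *TM4SF1* has cow 2 far above the others.

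In the *CLDN4*-only set the tetraspanins stood near the *DLK2*-only set, unlike *TM4SF1*. Here 26.7% of all genes were called, 14.5% higher and 12.2% lower, and 2 of the 5 tetraspanins were. *CD82* was at 1.01, 1.18 and 1.25 per 10000 in the *CLDN4*-only set, above the *DLK2*-only set in each cow, with a log2 fold change of 0.30 ± 0.07 (edgeR quasi-likelihood test, adjusted p = 0.0020). *CD151*, at 0.886, 0.848 and 1.08, was higher by 0.28 ± 0.06 (edgeR quasi-likelihood test, adjusted p = 0.0014). Both calls lay close to the fold threshold, and both were lost without cow 2 (0.23 and 0.24) or without the block. *CD9* (3.37, 4.89 and 7.12) had a log2 fold change of 0.25 ± 0.06 just under the threshold. It passed with DESeq2 (0.25), with 2 or more UMIs for presence (0.30), with no filter on low counts (0.26), after thinning (0.28) and without cow 1 (0.32). *CD81* had 0.12 ± 0.06 and *CD63* -0.19 ± 0.07.

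Against the *GJA1* set, the *CLDN4*-only set was lower in *CD9*, *CD82* and *CD151*, where 29.4% of all genes were called, 13.9% higher and 15.5% lower. *CD151* fell by 0.72 ± 0.06 on the log2 scale (edgeR quasi-likelihood test, adjusted p = 3.7e-08), *CD82* by 0.61 ± 0.07 (8.1e-07) and *CD9* by 0.47 ± 0.06 (1.0e-05). All 3 were lower in 3 of 3 cows, and the levels of *CD82* and of *CD151* in the sets did not overlap. *CD63* had 0.25 ± 0.07 and *CD81* -0.10 ± 0.06, neither past the threshold, though *CD63* passed it with library size alone (0.34), with no filter on low counts (0.27), after thinning (0.28) and without cow 3 (0.29). *TM4SF1* had -0.22 ± 0.13 in this comparison. The *GJA1* and *CLDN4*-only sets, both above the *DLK2*-only set in *TM4SF1*, thus differed in 3 of the 5 tetraspanins. Without the block, *CD9* and *CD82* were not called here. The median mitochondrial share of a cell was lower in the *CLDN4*-only set too, at 17.1%, 11.4% and 12.7% in cows 1, 2 and 3. In the *GJA1* set it was 22.6%, 13.8% and 14.3%, and the part of this in the differences was not tested.

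The scaling moved the split of calls between higher and lower genes. Scaled by library size alone, the median gene shifted by -0.14 (log2) between the *GJA1* and *DLK2*-only sets and by 0.11 between the *CLDN4*-only and *GJA1* sets, where TMM left -0.02 and 0.01. The split of calls then went from 2785 higher and 2754 lower to 2142 and 3570, and from 1497 and 1664 to 2217 and 1108. *CD9*, *CD82*, *CD151* and *CD63* kept their direction and their calls between the *GJA1* and *DLK2*-only sets, and *CD81* had 0.10 there. The list of immediate-early genes also differed between these sets, at 38.3, 59.3 and 19.3 per 10000 in the *GJA1* set against 82.7, 97.2 and 27.5 in the *DLK2*-only set, as did the median mitochondrial share of a cell, at 22.6%, 13.8% and 14.3% against 12.6%, 9.74% and 11.4%. The part of these measures in the differences was not tested.

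**Figure D5:**
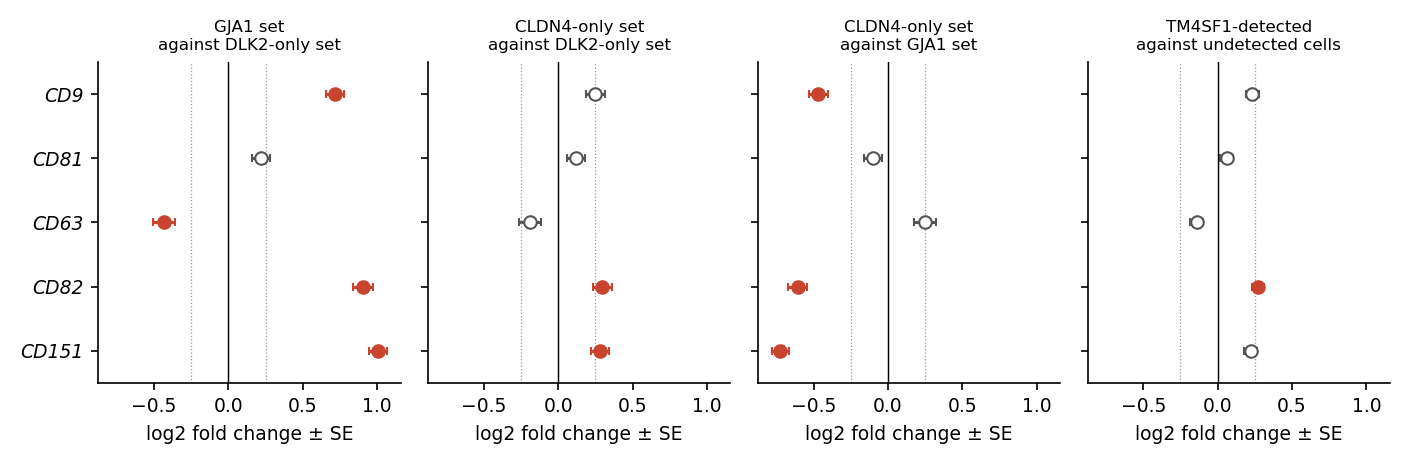
Log2 fold change (horizontal) with its standard error for 5 tetraspanins (vertical) in 4 comparisons, with filled red points for calls, open points for no call, and dotted lines at the fold threshold of 0.25. *CD151* and *CD82* lie furthest from 0 wherever the *GJA1* set takes part, and in the cells with *TM4SF1* no fold change exceeds 0.27.

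To see which tetraspanins shared cells with *TM4SF1*, the cells with at least 1 *TM4SF1* UMI (874, 4379 and 1564 in cows 1, 2 and 3) were summed per cow and set against the cells with none (2495, 3022 and 8394). Of 12047 genes tested, 15.9% were called, 8.96% higher and 6.93% lower. Cells with *TM4SF1* were deeper, with a median of 11862 to 14731 UMIs against 9174 to 9709. This favours finding a UMI of *TM4SF1*, and the levels compared are per 10000 UMIs.

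Of the 5 tetraspanins, 1 was called between these cells, beside 15.9% of all genes, so nothing is read from this count. *CD82* was at 1.15, 1.17 and 1.42 per 10000 with *TM4SF1* and at 1.03, 1.01 and 1.15 without, higher in 3 of 3 cows by 0.27 ± 0.04 (edgeR quasi-likelihood test, adjusted p = 1.7e-04). This call was lost after thinning (0.21), with library size alone (0.22) and without the block. The study lists *CD82* among the genes particular to a cluster that it named by *TM4SF1*. That cluster was made from the same cells, so the direction of *CD82* was known beforehand. *CD9* (3.77, 4.89 and 7.33 with, 3.41, 4.35 and 6.19 without) had 0.23 ± 0.04 and *CD151* 0.22 ± 0.04, both higher in 3 of 3 cows and under the fold threshold. With 2 or more UMIs for presence *CD9* (0.31), *CD82* (0.35) and *CD151* (0.29) passed the threshold, and *CD151* also did so without cow 2 (0.25). The shares of all genes called in these settings are not given here, so these calls are not read as a count. *CD63* was lower in 3 of 3 cows, at 1.17, 1.54 and 1.69 with and 1.34, 1.81 and 1.86 without, with -0.14 ± 0.04, and *CD81* had 0.06 ± 0.04. *GJA1* itself was at 2.19, 0.499 and 0.591 in cells with *TM4SF1* and at 0.888, 0.204 and 0.190 in those without.

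The comparison was repeated inside the sets, a choice made after the first values were seen. Within the *GJA1* set, cells with *TM4SF1* had *CD82* higher by 0.26 ± 0.07 (edgeR quasi-likelihood test, adjusted p = 0.049), while *CD151* had 0.23 ± 0.08 and *CD9* 0.21 ± 0.06, neither called. Within the *CLDN4*-only set *CD82* had 0.14 ± 0.07, *CD9* 0.14 ± 0.06 and *CD151* 0.06 ± 0.07. The *DLK2*-only set gave -0.00097 ± 0.077, 0.07 ± 0.07 and -0.12 ± 0.08 for the same genes, and no tetraspanin was called in these 2 sets. Of all genes tested, 3% (277 of 9234) were called within the *GJA1* set, 6.48% (630 of 9715) within the *CLDN4*-only set and 1.38% (141 of 10207) within the *DLK2*-only set. Whether the sets differ in this was not tested. Cell by cell, after thinning, the counts of *TM4SF1* and each tetraspanin were all but uncorrelated in each cow, with Pearson's r between -0.059 (*CD63* in cow 2, 7173 cells) and 0.062 (*CD9* in cow 2). These are descriptions over cells that share a library, in sparse counts.

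Genes of proteins that tetraspanins bind differed in both directions. Of 15 such genes 14 were tested, and between the *GJA1* and *DLK2*-only sets 5 were higher and 6 lower, with a median log2 fold change of -0.22 (all genes -0.02), where 25.9% of all genes were higher and 25.7% lower. The collagen receptor chain *ITGA2* (-1.90 ± 0.16, edgeR quasi-likelihood test, adjusted p = 7.5e-09), the laminin receptor chain *ITGA3* (-1.16 ± 0.12) and the growth factor receptor *EGFR* (-1.26 ± 0.10) had the largest fold changes. *ITGB1*, the beta chain that pairs with both, had -0.81 ± 0.07, while *ITGA6* had 0.41 ± 0.08 and *ITGB4* -0.22 ± 0.06, the last not called (these 3 were named after their values were seen). Among the immunoglobulin-type partners of *CD9* and *CD81*, also named so, *PTGFRN* had 0.64 ± 0.17 and *IGSF8* 0.36 ± 0.13, both called higher as *CD9* was.

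Between the *CLDN4*-only and *DLK2*-only sets, 2 of the 14 binding partners were higher and 6 lower (14.5% and 12.2% of all genes). The epithelial adhesion molecule *EPCAM* had 0.59 ± 0.07, *HBEGF* 0.39 ± 0.14 and *ITGA2* -0.71 ± 0.13. Against the *GJA1* set, 5 were higher in the *CLDN4*-only set and 1 lower (13.9% and 15.5% of all genes), led by *ITGA2* (1.18 ± 0.17), *EGFR* (0.90 ± 0.11) and *ITGA3* (0.77 ± 0.12). In cells with *TM4SF1*, 3 were higher and 2 lower (8.96% and 6.93% of all genes). The tight junction claudin *CLDN1* was higher by 1.06 ± 0.14 (edgeR quasi-likelihood test, adjusted p = 2.9e-05) and *HBEGF*, the partner of CD9, by 0.76 ± 0.08 (2.3e-06), while *EGFR*, the receptor of HBEGF, was lower with -0.37 ± 0.06 (2.3e-04). *CLDN1* and *HBEGF* were both lowest in cow 3, at 0.0396 and 0.0240 per 10000, against 0.313 and 0.145 for cow 1 and 0.230 and 0.207 for cow 2. The other called partners, *EPCAM*, *EGFR* and *ITGA3*, were lowest in cow 2, at 0.709, 0.147 and 0.250. The share of all genes that were lowest in cow 3 is not given here, so nothing is read from these orders.

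Tetraspanins outside the 8 genes were mostly rare. Of 26 listed, 23 had a row, 12 were tested between the sets, and only *TSPAN6* exceeded 0.5 per 10000 in all 3 cows (0.719, 0.767 and 1.00). In the *GJA1* set 3 were higher and 5 lower than in the *DLK2*-only set, where 25.9% of all genes were higher and 25.7% lower, with a median log2 fold change of -0.09 (all genes -0.02). The share of higher ones is near that of all genes. *TSPAN15*, a partner of the membrane protease ADAM10, had the largest fold change of 3.55 ± 0.37 (edgeR quasi-likelihood test, adjusted p = 1.3e-07) from 379 UMIs in all. *TSPAN5*, another partner of ADAM10, went the other way with -2.15 ± 0.29 (3.6e-06), and *TSPAN12* had -2.00 ± 0.39 (2.3e-04). *ADAM10* itself, named after its value was seen, had -0.32 ± 0.07.

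In the *CLDN4*-only set 3 of these 12 were higher and 2 lower than in the *DLK2*-only set (14.5% and 12.2% of all genes), *TSPAN15* by 1.77 ± 0.41, *TSPAN13* by 0.82 ± 0.29 and *TSPAN5* with -0.79 ± 0.21. Against the *GJA1* set 4 were higher and 1 lower in the *CLDN4*-only set (13.9% and 15.5% of all genes). *TSPAN15* was the lower with -1.78 ± 0.29, and *TSPAN12* (1.37 ± 0.42) and *TSPAN5* (1.36 ± 0.32) led the higher. In cells with *TM4SF1*, 14 were tested, 2 higher and 3 lower (8.96% and 6.93% of all genes), with *TSPAN15* at 1.03 ± 0.18 (edgeR quasi-likelihood test, adjusted p = 5.7e-04), *TSPAN13* at 0.64 ± 0.18 and *TSPAN12* at -0.63 ± 0.21.

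Of 5 listed relatives of *TM4SF1* in its own family, 3 had a row. *TM4SF5* was tested alone and was not called in any of the 4 comparisons, with log2 fold changes between -0.27 and -0.05, and its levels were 0.104, 0.0565 and 0.120 per 10000, lowest in cow 2. *TM4SF20* had 2 UMIs. *TM4SF18*, beside *TM4SF1* in the gene order of the RefSeq annotation of ARS-UCD2.0, had 7 UMIs in all and *CP*, also near it, had 6, too few to compare the cows. Among the other genes of that stretch, cow 2 was not the highest in *RNF13* (0.206, 0.194 and 0.187 in cows 1, 2 and 3), *COMMD2* (0.0396, 0.0480 and 0.0534), *WWTR1* (0.0288, 0.0188 and 0.0255), *HPS3* (0.0360, 0.0264 and 0.0255) or *HLTF* (0.460, 0.295 and 0.547). *TM4SF4*, *ANKUB1* and *CPHL1* are not analysed here.

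Genes that sort cargo into the vesicles on which CD63 sits were looked at beside *CD63*. Of 10 listed, 9 were tested, and 2 were higher and 2 lower in the *GJA1* set than in the *DLK2*-only set, a share near the 51.6% of all genes called there, so nothing is read from it about the list. The syntenin gene *SDCBP*, an adaptor of CD63, was lower with -1.37 ± 0.22 (edgeR quasi-likelihood test, adjusted p = 3.1e-05), as was the flotillin gene *FLOT1* with -0.80 ± 0.10, while *RAB27A*, which brings vesicles to the membrane, had 1.03 ± 0.38. The *CLDN4*-only set had 0 higher and 1 lower than the *DLK2*-only set, *FLOT1* with -0.31 ± 0.09 (14.5% and 12.2% of all genes), and 2 higher and 0 lower than the *GJA1* set (13.9% and 15.5%), *SDCBP* and *FLOT1* with 0.94 ± 0.23 and 0.49 ± 0.10. All 10 were tested in cells with *TM4SF1*, where *RAB27B* was higher with 1.16 ± 0.31 and *SDCBP* lower with -0.48 ± 0.14 (8.96% and 6.93% of all genes).

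Lists that mark states of the epithelium were read beside the family. All 5 keratins were tested, and 4 were higher and 0 lower in the *GJA1* set, 2 and 0 in the *CLDN4*-only set, each against the *DLK2*-only set, and 1 and 0 in cells with *TM4SF1*. Of all genes, 25.9%, 14.5% and 8.96% were higher in these comparisons. *KRT6A*, a keratin of activated keratinocytes, led each with 3.45 ± 0.13, 1.45 ± 0.12 and 1.32 ± 0.04. The study described *KRT6A* and *KRT10* as high in its clusters with *GJA1*, among them the cluster named by *TM4SF1*. Those clusters were made from the same cells. The direction of both keratins in the *GJA1* set, and of *KRT6A* in cells with *TM4SF1*, was thus known beforehand. Against the *GJA1* set, 1 keratin was higher in the *CLDN4*-only set, *KRT19* (0.58 ± 0.10), and 3 were lower, led by *KRT6A* (-2.00 ± 0.12), beside 13.9% and 15.5% of all genes. The 4 proliferation genes were all higher in the *GJA1* and in the *CLDN4*-only set than in the *DLK2*-only set, and in cells with *TM4SF1*, beside the same shares of 25.9%, 14.5% and 8.96% of all genes. In cells with *TM4SF1* *MKI67* had 0.55 ± 0.06 and *TOP2A* 0.51 ± 0.06.

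Among the 10 immediate-early and stress genes, 2 were higher and 7 lower in the *GJA1* set than in the *DLK2*-only set (25.9% and 25.7% of all genes), led by *JUNB* (-1.52 ± 0.17) and *FOS* (-1.35 ± 0.15). In the *CLDN4*-only set 7 were higher and 0 lower than in the *GJA1* set (13.9% and 15.5% of all genes). Against the *DLK2*-only set 0 were higher and 1 lower (14.5% and 12.2%), *FOS* with -0.46 ± 0.14. In cells with *TM4SF1* 7 were higher and 0 lower (8.96% and 6.93% of all genes), led by *FOSB* (0.78 ± 0.08), *ATF3* (0.70 ± 0.12) and *IER2* (0.54 ± 0.08).

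Of other cell types, *VWF* was higher in the *GJA1* set than in the *DLK2*-only set (0.88 ± 0.23) and lower in the *CLDN4*-only set than in the *GJA1* set (-0.67 ± 0.22). Of the immune list, *CD14* and *CD3E* were tested, and their fold changes had opposite signs in these comparisons. *CD14* was lower and then higher, with -0.87 ± 0.12 and 0.79 ± 0.12, while *CD3E*, from 211 UMIs in all, had 0.73 ± 0.35 and -0.76 ± 0.34 and was not called. No marker of the fibroblast, smooth muscle or melanocyte lists had the counts to be tested between the sets. In cells with *TM4SF1*, 2 endothelial, 3 immune, 2 smooth muscle, 1 melanocyte and 0 fibroblast markers had the counts to be tested, and none of these was called. The endothelial list summed to between 0.0262 and 0.0331 in these cells and to between 0.0257 and 0.0451 in cells without *TM4SF1*.

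The genes most like *TM4SF1* over the 15 sums of 5 sets and 3 cows, by Pearson's r of log2 counts scaled by TMM, were *ZBTB21* (r = 0.981), *ACTG1* (0.971) and ENSBTAG00000038476 (0.968), followed by *PIM1*, *IFRD1*, *UBALD2*, *MAP3K8*, *NECTIN2*, *EIF4G2* and *TSC22D2* (0.961 to 0.949). All 10 were highest in cow 2, which their choice largely fixed, since the cow took 84.8% of the variance of *TM4SF1* over these sums. *ACTG1*, which encodes cytoplasmic gamma actin, had 10.9, 14.9 and 8.94 per 10000 in cows 1, 2 and 3, and the kinase gene *MAP3K8* 0.0666, 0.225 and 0.00998. The sums share 3 libraries, and r is given as a description.

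After the mean of each cow was taken out, another group of genes was the most like it. *PFDN2*, a subunit of the prefoldin chaperone, had r = 0.968, and *TOMM5*, a part of the import pore of mitochondria, 0.965. *UBE2N*, *HSPA8*, *TIMM13*, *BOLA3*, *MRPL15*, ENSBTAG00000039722, *KIF5B* and *ABCF2* followed, down to 0.935. On this scale *CD9* had 0.839, *CD81* 0.804, *CD82* 0.780 and *CD151* 0.764, and *CD63* was opposite at -0.608. *CLDN4*, *GJA1* and *DLK2*, which set the cells, had 0.797, 0.546 and -0.605. The spread of r over all genes is not given here, so the r of the tetraspanins is not read as particular to them. With the cow left in, *CD9*, *CD81*, *CD82*, *CD151* and *CD63* had 0.153, -0.417, 0.435, 0.217 and 0.156. These values rest on the levels of *TM4SF1* by cow and set, on which it was chosen.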

How the data were processed

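The authors aligned reads to ARS-UCD1.2 with Cell Ranger 3.1.0, filtered cells, ran a doublet caller and removed other cell types. They deposited raw UMI counts per gene and cell, and the same cells as the natural log of 1 plus counts per 10000 UMIs. The deposited natural log table named the rows of the count matrix (1964 rows checked, tolerance 1e-06). No cluster was built and no doublet caller was run here. 0 columns of other samples were present.

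Counts were summed per cow and cell set, and tested with edgeR 4.0.16 (R 4.3.3; filterByExpr, TMM, quasi-likelihood) with the cow as a block. The cow is a block because the sums compared come from the same animals. Deviations of the sums from their set's mean correlated within a cow at 0.664 to 0.876 and across cow and set at -0.540 to -0.220. Taking out a mean over so few cows itself makes values across cows negative, so that range is not read. With the cow as a block, the p-values measure the spread left between the sums after cow and set are taken out. That spread is estimated over all sums of a fit and partly shared between genes. It is not the spread between cows. The common biological coefficient of variation was 0.0642 over 15 set sums and 0.0432 over 6 sums for cells with and without *TM4SF1*. Descriptions used Python 3.11.15, numpy 2.4.6, pandas 2.3.3 and matplotlib 3.10.9. Mitochondrial shares come from 13 genes, and thinning used seed 7. The script was tested on simulated data.

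Alternatives were no block, DESeq2 1.42.0, library size alone, leaving out each cow, keeping genes of low counts, 2 UMIs for presence, sets after thinning, no fold threshold, and cells under 1% mitochondrial share left out (242 cells). The genes named are the 8 members, up to 3 called genes per list and comparison with the largest fold change, and the 10 genes most like *TM4SF1* by each measure, with others said to be named after their values were seen. Some list genes, such as *TSPAN6* and *CD3E*, were also named outside this rule with their values seen. The members and lists were chosen with earlier results of these data known. No sequence or genome position is given, since the reference tables at hand hold no sequences and are of another assembly.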

Additional observations from a re-analysis of the deposited data

How the results depend on the processing

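Without the replicate block, edgeR called 1909 genes in place of 5539 between the *GJA1* and *DLK2*-only sets, 32 in place of 2868 between the *CLDN4*-only and *DLK2*-only sets, 319 in place of 3161 between the *CLDN4*-only and *GJA1* sets, and 0 in place of 1915 between cells with and without *TM4SF1*, where 279 genes had an unadjusted p under 0.05 and DESeq2 with the block called 1088. The cow takes much of the variance of most genes, and a call lost here is not a smaller difference. Leaving out each cow in turn gave 4575 to 5172, 1768 to 2786, 2134 to 2771 and 1457 to 1754 calls in the 4 comparisons. In the comparison of the *CLDN4*-only with the *DLK2*-only set, the count was 1768 without cow 2 and 1849 without cow 3. Cells with and without *TM4SF1* gave 773 calls after thinning, and 277, 630 and 141 within the *GJA1*, *CLDN4*-only and *DLK2*-only sets, which hold fewer cells. The split there was 1080 higher and 835 lower, against 780 and 308 with DESeq2, 825 and 1117 with library size alone, and 520 and 253 after thinning. Reversed were *CD81* (-0.069 within the *GJA1* set), and *CD82* (-0.00097) and *CD151* (-0.12) within the *DLK2*-only set, all uncalled, and the cause was not tested. The *TM4SF1* ratio between cows was 8.78 in thinned cells, 8.83 as a mean over cells and 8.70 with equal weights of the 5 sets. Of the other values of single genes, 232 kept their direction and were called or uncalled as in the main setting. For *TM4SF1*, with no test, a value counts among these if it moved by less than the SD of its log2 ratios over the cows. Called only under the alternative were 20, in part because 1 alternative had no fold threshold. The call of 12 was lost, by the fold change or by the adjusted p. The 1 that moved was *TM4SF1*, at 1.64 in place of 1.34 between the *CLDN4*-only and *DLK2*-only sets with 2 UMIs for presence.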

Other observations

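Beside *TM4SF1*, whose level in cow 2 was 4.14 times that in cow 1, 20 of the 10734 genes tested were more than 5 times higher in cow 2 than in each of the others. They were looked for after the spread of *TM4SF1* was seen and are given as values with no test. The 3 most abundant are named. *NFKBIA*, the inhibitor of NF-kappa-B, was at 0.576, 3.46 and 0.537 per 10000 in cows 1, 2 and 3. The chemokine gene *CCL20* had 0.0529, 0.787 and 0.0214 and ENSBTAG00000020684 had 0.0511, 0.739 and 0.0252. The cause was not tested.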
